A study of Rattus norvegicus with 2 samples.

Results

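The genes described are 10 rows of the expression table, chosen by symbol out of 18049 genes: the annexin genes Anxa1, Anxa2, Anxa3, Anxa4, Anxa5 and Anxa6 and the S100A genes S100a4, S100a6, S100a10 and S100a11. Annexins are cytosolic proteins that dock onto negatively charged membrane lipids when calcium rises, and they tie membranes to the actin cortex, take part in vesicle traffic and gather at plasma membrane wounds. S100 proteins are small calcium sensors that pair up and change shape when calcium binds to their EF hands, a helix and loop motif. Several S100A dimers grip the N-terminal tails of annexins, as S100A10 does with annexin A2 and S100A11 with annexin A1. In the brain these genes are best known from astrocytes and, in part, from microglia.

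The study compared rat oligodendrocyte precursor cells (OPCs), the progenitors of the myelinating glia, after electroporation of an siRNA against Hsc70 (siHsc70) or of a scrambled siRNA (siSCR). Hsc70 is a constitutive heat shock chaperone encoded by Hspa8. Both groups were wild type cells, panned on antibodies to GalC and A2B5 from the cortex of pups aged P2 to P4, and were differentiated with 60 nM of the thyroid hormone T3 without PDGF-AA, bFGF and NT3. The series' text gives day 2 of T3 and calls the cells immature oligodendrocytes. Each group was 1 library, so no difference could be set against a spread between cultures, no p-value is given, and every interval covers counting error only.

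The siHsc70 library held 18130768 reads and the siSCR library 19085587 reads, both as rounded estimated counts. Hspa8 was at 507 CPM (read counts scaled to a common library total) in siHsc70 and 1399 CPM in siSCR, 2.76-fold lower (95% counting interval 2.69 to 2.83). Of 12 measured marker genes of oligodendrocytes, 11 were at least 2-fold lower in siHsc70. The 14 genes of that list with a row, measured or not, summed to 991 TPM in siHsc70 and 5538 TPM in siSCR. Of 12 measured OPC markers, 8 were at least 2-fold lower, with sums of 2202 TPM in siHsc70 and 3629 TPM in siSCR. In a bulk library a change in the number of cells of a type and a change of RNA per cell cannot be told apart.

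All 10 annexin and S100A genes were higher in the siHsc70 library, by 1.12-fold (Anxa6) to 3.69-fold (S100a6). All 10 had a mean of at least 1 CPM, the limit above which a gene is called measured here, and the counting interval of each ratio of normalised counts lay above 1. Among all 13518 measured genes 49.7% were higher by any amount and 32.5% had such an interval. A gene is called at least 2-fold higher where log2(CPM + 1) was greater by 1 or more in siHsc70. By that rule 3 of the 10 (30.0%) were higher, S100a6, S100a11 and Anxa4, against 2.29% of all measured genes. None of the 10 was at least 2-fold lower, as were 5.14% of all measured genes. At least 1.5-fold higher were 8 of the 10 (80.0%), against 9.65% of all measured genes. The median difference of the 10 was 0.91 on the log2(CPM + 1) scale, and that of all measured genes was -0.0034. The 10 genes were chosen with earlier results of these data known, so their place above all measured genes may come from that choice.

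**Figure D1:**
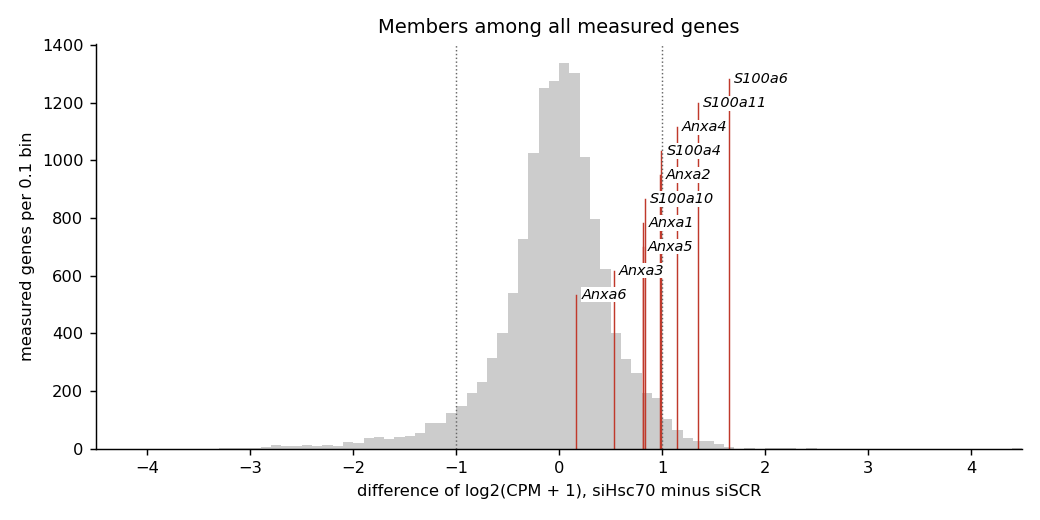
Histogram of the difference of log2(CPM + 1), siHsc70 minus siSCR, over 13518 measured genes in bins of 0.1, with genes beyond the axis counted in the end bins. Red lines mark the 10 annexin and S100A genes, which all lie right of 0, from Anxa6 at 0.17 to S100a6 at 1.65, and dotted lines mark a difference of 1 either way.

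The 250 bases before the annotated start are shown for the 3 genes past the 2-fold rule and for Anxa2 and S100a4, which lie just short of it, because these genes have the largest differences of the set. The sequences are from RefSeq (build GRCr8) and were matched by gene ID for 8 of the 10 genes, all but Anxa6 and S100a10. They read 5′ to 3′ in the direction of transcription. Capitals mark every match, on either strand, to the TATA box (TATAAA), the GC box bound by SP1 (GGGCGG), the AP-1 site (TGANTCA), the core of a heat shock element (GAANNTTC), a SOX site (ACAAAG) and a TEAD site (GGAATG).
S100a6, chr2:178398287-178398536, plus strand: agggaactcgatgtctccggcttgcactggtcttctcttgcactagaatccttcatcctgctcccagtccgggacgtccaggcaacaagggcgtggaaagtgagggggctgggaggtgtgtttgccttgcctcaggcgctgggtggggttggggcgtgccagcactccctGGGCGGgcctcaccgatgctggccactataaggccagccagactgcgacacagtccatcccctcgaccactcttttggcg
S100a11, chr2:181874882-181875131, plus strand: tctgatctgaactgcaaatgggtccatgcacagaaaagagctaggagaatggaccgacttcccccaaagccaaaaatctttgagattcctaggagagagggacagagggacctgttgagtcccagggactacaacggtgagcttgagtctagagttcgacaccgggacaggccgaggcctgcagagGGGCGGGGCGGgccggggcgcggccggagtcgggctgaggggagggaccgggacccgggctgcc
Anxa4, chr4:120798514-120798763, minus strand: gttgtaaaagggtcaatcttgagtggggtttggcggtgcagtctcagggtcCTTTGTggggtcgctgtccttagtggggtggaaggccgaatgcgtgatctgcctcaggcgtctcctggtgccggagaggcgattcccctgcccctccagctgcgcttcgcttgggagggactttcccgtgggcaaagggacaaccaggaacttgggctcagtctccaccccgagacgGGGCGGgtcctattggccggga
S100a4, chr2:178388279-178388528, plus strand: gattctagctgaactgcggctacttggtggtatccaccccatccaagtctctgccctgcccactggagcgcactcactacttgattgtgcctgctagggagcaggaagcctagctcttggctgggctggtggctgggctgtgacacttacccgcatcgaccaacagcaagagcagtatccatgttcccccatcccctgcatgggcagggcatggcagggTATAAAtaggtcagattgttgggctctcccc
Anxa2, chr8:78986002-78986251, plus strand: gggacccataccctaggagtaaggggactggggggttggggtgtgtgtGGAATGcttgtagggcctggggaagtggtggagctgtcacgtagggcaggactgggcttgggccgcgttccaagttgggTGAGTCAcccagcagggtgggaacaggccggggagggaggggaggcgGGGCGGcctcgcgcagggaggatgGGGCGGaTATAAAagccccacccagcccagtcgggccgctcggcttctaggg

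The S100a6 window held a GC box 80 bases before the start and the S100a11 window held 2 overlapping GC boxes, 64 and 59 bases before it. The Anxa4 window held a GC box 22 bases and a SOX match 199 bases before the start. The S100a4 window held a TATA box 31 bases before the start. The Anxa2 window held a TATA box at 45 bases, GC boxes at 52 and 76 bases, the AP-1 site at 123 bases and the TEAD match at 202 bases. Over the 8 windows, GC boxes were found in 6 (75.0%), against 30.5% of 33469 rat promoter windows of the same length, and TATA boxes in 3 (37.5%), against 12.9%. SOX matches were found in 2 (25.0%), against 16.3% of all windows, TEAD matches in 2 (25.0%), against 12.1%, and the AP-1 site in 1 (12.5%), against 6.34%. The heat shock core was found in 0 of 8, and in 7.23% of all windows. The windows held 45.2% (Anxa1) to 67.2% (Anxa2) G and C, against a median of 51.2% over all windows. The motifs match letters only, and binding of any factor was not measured.

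S100a10, also called p11, was the most abundant of the 10 transcripts, and unlike its relatives its protein no longer binds calcium. S100a10 was at 1979 TPM (a level scaled for transcript length) in siHsc70 and 1220 TPM in siSCR, which made it the 39th highest gene of the table in siHsc70 and the 79th in siSCR. Its normalised counts were 545 CPM in siHsc70 and 305 CPM in siSCR, a 1.79-fold higher level (1.73 to 1.85).

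Anxa2, the annexin that binds S100A10 and with it forms a surface complex that holds plasminogen and its activator, was at 513 TPM in siHsc70 and 286 TPM in siSCR. Anxa2 was 347 CPM in siHsc70 and 175 CPM in siSCR, 1.98-fold higher (1.90 to 2.07). S100a10 was at 3.86 times the TPM of Anxa2 in siHsc70 and at 4.27 times in siSCR, since the ratio of Anxa2 was the larger and the counting intervals did not overlap. RefSeq names 8 copies or pseudogenes of Anxa2 and 1 of S100a10, none with a row analysed here.

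S100a11, whose protein binds annexin A1 and has roles in membrane repair and growth control, had the second largest difference of the set. S100a11 was at 642 TPM in siHsc70 and 275 TPM in siSCR, and its 3068 reads in siHsc70 and 1276 reads in siSCR gave a ratio of 2.57 (2.41 to 2.75). In RefSeq 7 genes or pseudogenes are named as copies of S100a11, and no row of theirs was analysed here, so reads shared with them could be part of its count.

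Anxa1, whose protein is induced by glucocorticoids and dampens inflammation through formyl peptide receptors, was at 446 TPM in siHsc70 and 277 TPM in siSCR. Its ratio was 1.77 (1.69 to 1.84). S100a11 was at 1.44 times the TPM of Anxa1 in siHsc70 and at 0.992 times in siSCR, where the counting intervals of S100a11 (260 to 291 TPM) and Anxa1 (268 to 287 TPM) overlapped.

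S100a4, whose protein binds non-muscle myosin and is known from migrating and metastatic cells, was at 382 TPM in siHsc70 and 209 TPM in siSCR. S100a4 was 2.01-fold higher (1.85 to 2.19), and with the pseudocount its difference of 0.99 fell just short of the 2-fold rule, as did that of Anxa2 at 0.98. S100a6, also called calcyclin, was the lowest of the S100A genes at 74.7 TPM in siHsc70 and 22.5 TPM in siSCR. With 255 reads in siHsc70 and 74 reads in siSCR its ratio of 3.69 (2.84 to 4.84) was the largest of the 10 and also among the least precise. Only 31 of the 13518 measured genes (0.229%) had a larger difference than S100a6, and 90 (0.666%) had a larger one than S100a11.

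**Figure D2:**
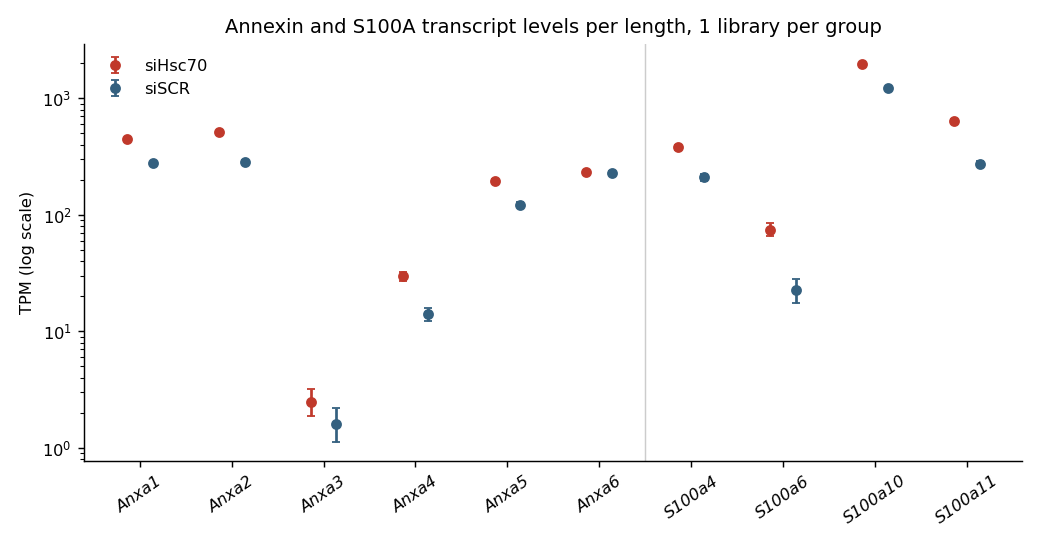
Level of each gene in TPM on a log axis, siHsc70 in red and siSCR in blue, with 95% exact Poisson intervals from the reads of 1 library each (smaller than the symbol for most genes). The red point is above the blue point for each gene, from S100a10 (1979 TPM in siHsc70, 1220 TPM in siSCR) down to Anxa3 (2.47 TPM in siHsc70, 1.60 TPM in siSCR), and the gap is smallest for Anxa6.

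Anxa5, known as the probe for phosphatidylserine on dying cells and as a protein that forms lattices on membranes, was at 195 TPM in siHsc70 and 122 TPM in siSCR. Its ratio of 1.77 (1.66 to 1.88) was within counting error of that of Anxa1. Anxa4, best known from epithelia, was at 29.6 TPM in siHsc70 and 13.98 TPM in siSCR. Its 510 reads in siHsc70 and 237 reads in siSCR gave the largest ratio among the 6 annexins, 2.30 (1.97 to 2.70).

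Anxa6, the largest annexin, with more lipid-binding repeats than its relatives, stood nearest to no difference. Anxa6 was at 234 TPM in siHsc70 and 230 TPM in siSCR, and its normalised counts of 317 CPM in siHsc70 and 282 CPM in siSCR gave a ratio of 1.12 (1.08 to 1.17). On the TPM scale its counting intervals, 228 to 240 TPM in siHsc70 and 224 to 236 TPM in siSCR, overlapped, and its log2(TPM + 1) difference was 0.026. The median of all measured genes on that scale was -0.13. Anxa6 stood 0.16 above that median, and its difference in the counts was 0.17. Of all measured genes 33.3% had a larger difference than Anxa6. Anxa3, a gene of neutrophils and microglia, was the lowest of the set, at 2.47 TPM in siHsc70 and 1.60 TPM in siSCR, with 58 reads in siHsc70 and 37 reads in siSCR and a ratio of 1.68 (1.09 to 2.61).

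The mix of transcripts differed along with their sum. The 6 annexins summed to 1420 TPM in siHsc70 and 930 TPM in siSCR, a ratio of 1.53. Anxa2 took 36.1% of the annexin sum in siHsc70 and 30.7% in siSCR, while Anxa6 took 16.5% in siHsc70 and 24.7% in siSCR. In siHsc70 the annexins ranked by TPM were Anxa2, Anxa1, Anxa6, Anxa5, Anxa4 and Anxa3. The order was the same in siSCR, where the counting intervals of Anxa2 (276 to 295 TPM) and Anxa1 (268 to 287 TPM) overlapped. The 4 S100A genes summed to 3077 TPM in siHsc70 and 1727 TPM in siSCR, a ratio of 1.78. S100a10 took 64.3% of that sum in siHsc70 and 70.7% in siSCR, S100a11 took 20.9% in siHsc70 and 15.9% in siSCR, and S100a4 took 12.4% in siHsc70 and 12.1% in siSCR. The order was S100a10, S100a11, S100a4 and S100a6 in both libraries. The median difference was 1.17 for the S100A genes and 0.82 for the annexins, and the ranges overlapped, from 0.84 to 1.65 for the S100A genes and from 0.17 to 1.14 for the annexins.

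The other genes of both families were mostly higher as well. Anxa7 and Anxa11, annexins with long proline-rich N-terminal tails, were 1.98-fold (1.87 to 2.09) and 1.93-fold (1.78 to 2.08) higher. Anxa7 was at 207 CPM in siHsc70 and 105 CPM in siSCR, and Anxa11 at 103 CPM in siHsc70 and 53.5 CPM in siSCR. Anxa9 was at 0.945 CPM in siHsc70 and 1.35 CPM in siSCR, and its ratio of 0.700 (0.356 to 1.34) was within counting error of 1. Of the 9 measured annexins 8 were higher by any amount, with a median of 0.82. S100b, the glial S100 gene used as an astrocyte marker and also expressed in the oligodendrocyte lineage, was 1.52-fold higher (1.46 to 1.58), at 363 CPM in siHsc70 and 239 CPM in siSCR. S100a16 was 1.57-fold higher (1.43 to 1.71), at 68.2 CPM in siHsc70 and 43.6 CPM in siSCR. S100a1, S100a13 and S100a3 had ratios of 1.46, 1.47 and 1.42, and the interval of S100a3 (0.923 to 2.19) included 1. All 9 measured S100 genes were higher by any amount, with a median of 0.64. The 4 S100A members had larger ratios than each of the other 5, and their counting intervals lay above those of S100b and S100a16, which are the best counted of the 5. The intervals of S100a1 (1.20 to 1.77), S100a13 (1.07 to 2.03) and S100a3 overlapped that of S100a10. The members were chosen with earlier results of these data known, so their place above their relatives may come from that choice.

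**Figure D3:**
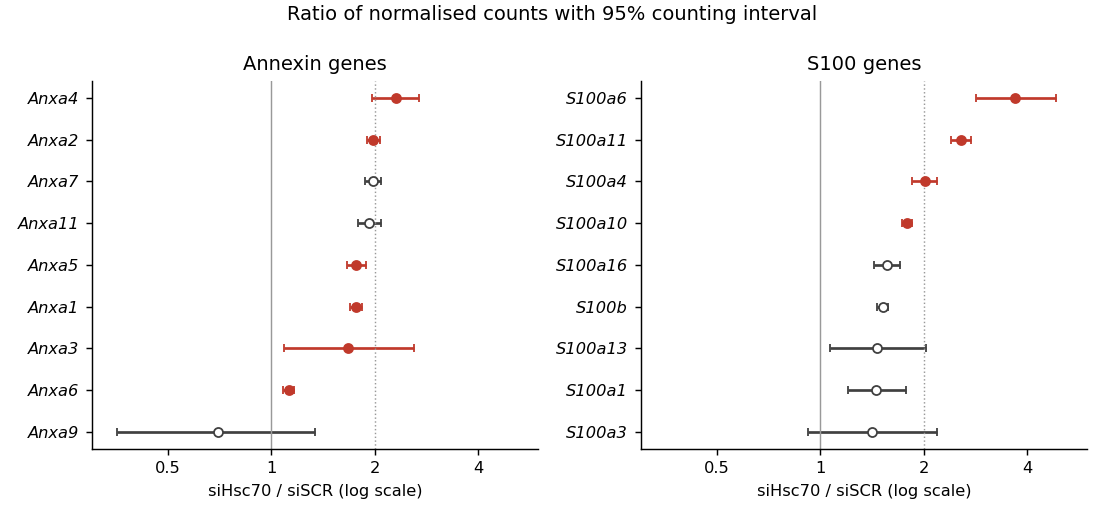
Ratio of normalised counts, siHsc70 over siSCR, with 95% exact counting intervals on a log axis, for 9 measured annexins and 9 measured S100 genes. Filled red points are the 10 genes described above and open points are their relatives, and solid and dotted lines mark ratios of 1 and 2. Anxa9 is the only point left of 1, and its interval spans 1.

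The 4 S100A genes lie in the S100 gene cluster of rat chromosome 2, which made it possible to ask whether their neighbours differed as well. In the gene order of RefSeq (assembly GRCr8, used for order only), 8 measured genes in a row were S100 genes: S100a1, S100a13, S100a16, S100a3, S100a4, S100a6, S100a11 and S100a10. Of the 61 protein-coding genes annotated between S100a6 and S100a11, 7 had a row, 0 of these 7 reached the 1 CPM limit, and the others were not analysed here. All 8 genes of the run were higher in siHsc70, with differences of 0.36 to 1.65 and a median of 0.74. The 4 measured genes on each side of the run, which were named after their values were seen, had differences of -0.30 to 0.55 with a median of 0.035, and 4 of these 8 were higher. The nearest were Chtop, whose protein takes part in mRNA export, at 122 CPM in siHsc70 and 151 CPM in siSCR, and Them4, a thioesterase gene, at 18.4 CPM in siHsc70 and 18.7 CPM in siSCR. The 4 largest differences of the run were those of the 4 members, which were chosen with earlier results known. They are the last 4 measured genes of the run before Them4. The 4 are not all side by side on the chromosome. Between S100a6 and S100a11 lie 61 protein-coding genes, between S100a4 and S100a6 lies 1, and between S100a11 and S100a10 lie 0.

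The annexin genes are scattered over 6 chromosomes, and their flanking genes, also named after their values were seen, were looked at in the same way. Of the 48 measured genes that lie within 4 places of an annexin member, 0 passed the 2-fold rule upwards, 1 passed it downwards (Ccna2, a cyclin gene near Anxa5) and 3 were higher by 1.5-fold or more. Of all measured genes 2.29%, 5.14% and 9.65% did so, and at such shares 48 genes cannot show a lack. The median difference of the 48 was 0.078. Among the 12 genes next to an annexin, Rorb, an orphan nuclear receptor gene beside Anxa1, had the largest difference, 0.71, at 390 CPM in siHsc70 and 237 CPM in siSCR. Ice2 and Bnip2 on either side of Anxa2 had differences of 0.0048 and 0.13. No other gene with a row in the table overlapped any of the 10 in that annotation.

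**Figure D4:**
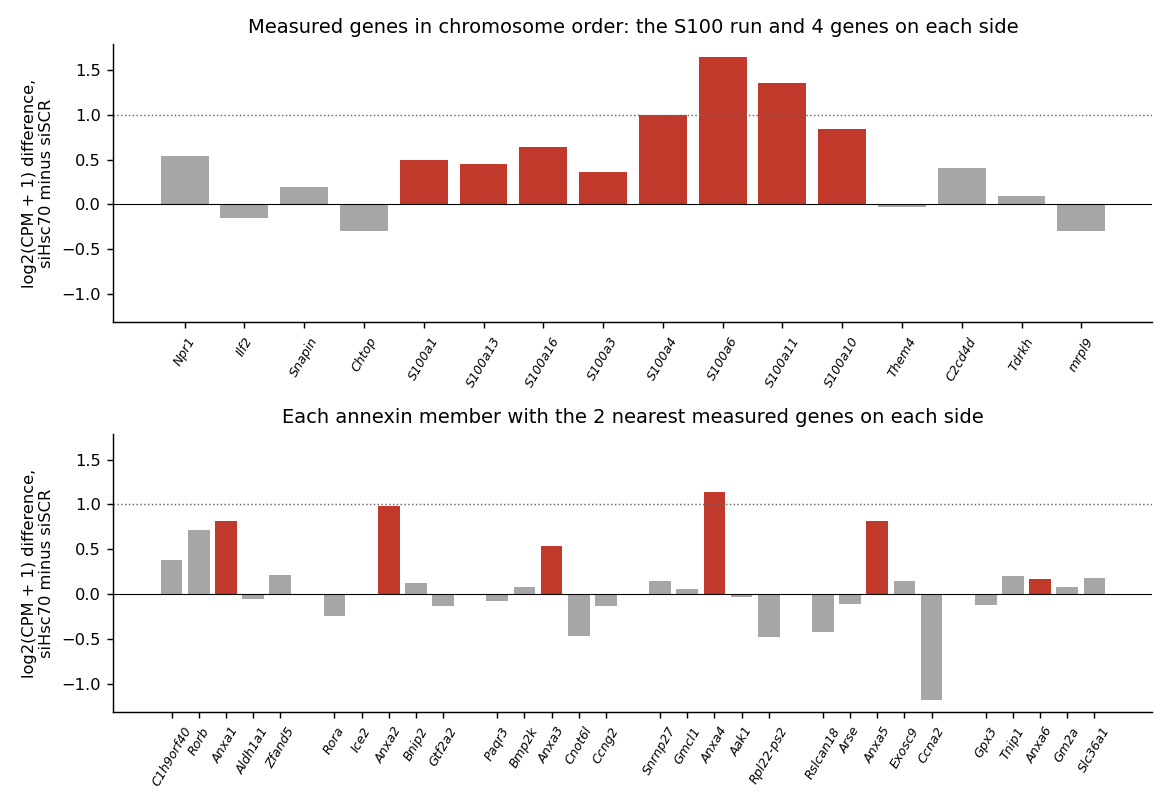
Difference of log2(CPM + 1), siHsc70 minus siSCR, for measured genes in chromosome order. In the upper panel the red bars are the 8 S100 genes in a row (0.36 to 1.65) and the grey bars are the 4 measured genes on each side (-0.30 to 0.55), and in the lower panel each annexin (red) stands between its 2 nearest measured genes on each side (grey). The dotted line marks a difference of 1.

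Genes of the known partners of these proteins were mostly higher, with some lower. Of 21 measured partner and receptor genes, 16 were higher and 5 lower by any amount, against 49.7% of all measured genes higher. At least 1.5-fold higher were 4, against 9.65%, and 2 were at least 1.5-fold lower. The 2-fold rule was passed upwards by 1 and downwards by 1, against 2.29% and 5.14% of all measured genes. The median difference was 0.17, or 0.015 with the deposited TPM, against -0.0034 and -0.13 for all measured genes. Ahnak2 was 2.07-fold higher (1.89 to 2.27), and Efna1, encoding an ephrin, was 3.35-fold lower (2.37 to 4.81). Of the direct partners, named after their values were seen, Ahnak, encoding a giant scaffold bound by the annexin A2 and S100A10 complex, was 1.30-fold higher (1.22 to 1.39). Cacybp, whose protein binds S100A6, was at 188 CPM in siHsc70 and 116 CPM in siSCR. Myh9, encoding the myosin chain bound by S100A4, was at 100 CPM in siHsc70 and 112 CPM in siSCR. The annexin A1 receptor genes Fpr1 and Fpr2 had 6 and 1 reads in siHsc70 and 2 and 0 reads in siSCR.

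The plasminogen system, which annexin A2 and S100A10 concentrate at the cell surface, had 8 measured genes in the list. The 2-fold rule was passed upwards by 1 and downwards by 0 of them, and their median difference was 0.37. Plaur, the receptor of urokinase, was 3.76-fold higher (2.50 to 5.80), at 6.06 CPM in siHsc70 and 1.61 CPM in siSCR. The activator genes, named after their values were seen, were also higher, Plat at 449 CPM in siHsc70 against 256 CPM in siSCR and Plau at 28.0 CPM in siHsc70 against 13.9 CPM in siSCR. Plasminogen itself (Plg) had 16 reads in siHsc70 and 14 reads in siSCR.

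Other calcium-binding proteins and membrane repair genes did not pass the 2-fold rule upwards. As 2.29% of all measured genes did, lists of this size cannot show a lack of such genes. Of 21 measured EF-hand and C2 genes outside both families, 0 passed the 2-fold rule either way. By any amount 17 of the 21 were higher, against 49.7% of all measured genes. At least 1.5-fold higher were 4 of the 21, against 9.65%. The median difference of the 21 was 0.25, and Calb1, encoding the calcium buffer calbindin, was furthest from 0 at 1.92-fold higher (1.70 to 2.17). Of 18 measured genes of membrane repair and lipid scrambling, 0 passed the rule upwards and 1 downwards, and the median difference was 0.17. By any amount 12 of the 18 were higher, 0 of them by 1.5-fold or more. The gene past the rule was Xkr4, of the family of lipid scramblases, which was 3.79-fold lower (2.27 to 6.63), at 1.06 CPM in siHsc70 and 4.002 CPM in siSCR. A mixed list held genes of cortical actin, actin-binding proteins and membrane linkers, with 2 galectin genes and Vim among them. Of its 23 genes, 22 were higher by any amount, against 49.7% of all measured genes. The 2-fold rule was passed upwards by 5, against 2.29% of all measured genes, and the median difference of the list was 0.48. Lgals1, encoding the lectin galectin-1, was 2.52-fold higher (2.41 to 2.65), Ezr, encoding the membrane linker ezrin, 2.20-fold higher (2.13 to 2.28), and Actn1, encoding an actin crosslinker, 2.07-fold higher (1.96 to 2.18). Actb was the gene of that list with a lower level in siHsc70, at 2733 CPM in siHsc70 and 3038 CPM in siSCR.

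**Figure D5:**
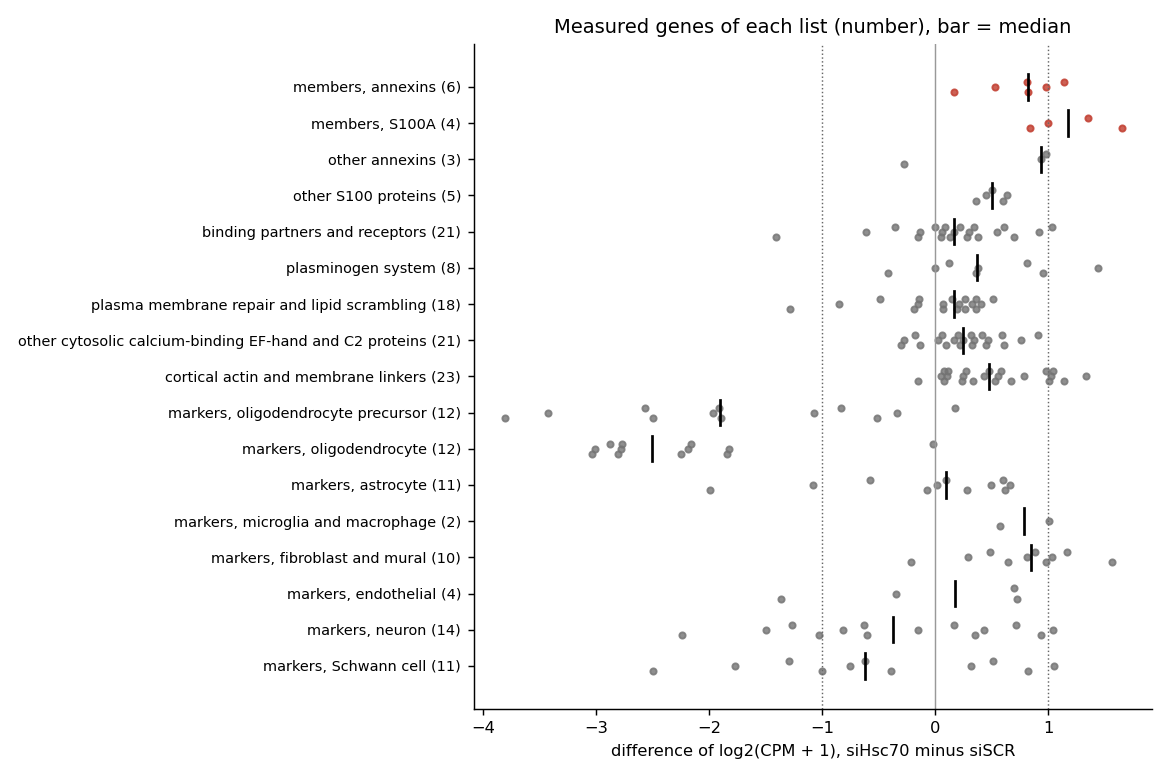
Difference of log2(CPM + 1), siHsc70 minus siSCR, for each measured gene of each list, with the number of measured genes in brackets and a bar at the median. The medians are 0.82 for the 6 annexins and 1.17 for the 4 S100A genes (red), 0.17 to 0.48 for the partner, plasminogen, repair, calcium and actin lists, 0.85 for the 10 fibroblast and mural markers, 0.79 for the 2 microglial markers and -2.51 for the oligodendrocyte markers.

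Because astrocytes, microglia, fibroblasts and endothelial cells can also express annexins and S100A genes, their markers are given beside these differences. Of 10 measured fibroblast and mural markers 3 passed the 2-fold rule upwards and 0 downwards, and the median difference was 0.85. By any amount 9 of the 10 were higher, and 7 were higher by 1.5-fold or more. That list summed to 161 TPM in siHsc70 and 95.9 TPM in siSCR, with Col1a1, a fibrillar collagen gene, at 73.8 CPM in siHsc70 and 24.3 CPM in siSCR. Col6a1, another collagen gene, was at 74.5 CPM in siHsc70 and 32.7 CPM in siSCR, and Postn, encoding the matrix protein periostin, at 6.56 CPM in siHsc70 and 2.70 CPM in siSCR. Of the 13 genes of the list with a row, 3 were below the 1 CPM limit. These 3 are named after their values were seen. Lum and Dcn had 0 and 1 reads in siHsc70 and 2 and 9 reads in siSCR. Acta2 went the other way, with 13 reads in siHsc70 and 2 reads in siSCR, a ratio of 6.95 (1.57 to 63.5). Of 11 measured astrocyte markers 0 passed the 2-fold rule upwards and 2 downwards, Aqp4 and Gfap. By any amount 7 were higher, 3 of them by 1.5-fold or more: S100b and, named after their values were seen, Aldh1l1 at 1.61-fold (1.42 to 1.84) and Sox9 at 1.54-fold (1.45 to 1.63). The list summed to 2967 TPM in siHsc70 and 3647 TPM in siSCR, with Gfap alone at 481 TPM in siHsc70 and 1126 TPM in siSCR. The astrocyte median was 0.098, or -0.025 with the deposited TPM, against -0.0034 and -0.13 for all measured genes. Of 14 microglial markers 2 were measured, Tmem119 and Cd68, with Cd68, a lysosomal gene, at 4.34 CPM in siHsc70 and 1.66 CPM in siSCR. The list summed to 13.1 TPM in siHsc70 and 7.89 TPM in siSCR. Of its 10 genes with a row, 7 had at most 3 reads in siHsc70 and 5 in siSCR. The genes below the 1 CPM limit, named after their values were seen, went both ways. Aif1, C1qc and Tyrobp had 1 read each in siHsc70 and 0 in siSCR, and Trem2 had 1 in both. P2ry12, Csf1r, Ptprc and Fcer1g had 5, 2, 2 and 1 reads in siHsc70 and 15, 8, 4 and 3 reads in siSCR. Of 10 endothelial markers 4 were measured, 2 of them higher and 2 lower in siHsc70. Kdr was 8.23-fold lower (3.27 to 26.6), with 5 reads in siHsc70 and 44 reads in siSCR. The others are named after their values were seen. Esam was 2.89-fold higher (1.36 to 6.69) and Egfl7 1.87-fold higher (1.30 to 2.73), and the interval of Flt1 (0.549 to 1.01) included 1. The 7 genes of the list with a row summed to 8.03 TPM in siHsc70 and 6.86 TPM in siSCR, and Cdh5 had 0 reads in siHsc70 and 1 in siSCR. The neuronal and Schwann cell lists were split, with medians of -0.37 and -0.62. Of 14 measured neuronal markers 6 were higher and 8 lower, and 1 passed the 2-fold rule upwards (Nefh) and 4 downwards. Of 11 measured Schwann cell markers 4 were higher and 7 lower, and 1 passed the rule upwards (Dhh) and 4 downwards. The part of these cell types in the higher annexin and S100A levels was not tested.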

How the data were processed

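The authors deposited 1 table with estimated counts, FPKM and TPM for 2 libraries. Per the file headers the estimated counts are reads per gene before normalisation, and 26.7% (siHsc70) and 26.5% (siSCR) of them are not whole. The deposited FPKM and TPM values are scaled for transcript length, per the file headers' names, and TPM sums to 999999.4 in siHsc70 and 999999.8 in siSCR. The submitters' processing notes name the mouse build mm39, although the rows carry rat gene IDs (16783 of 18049 are in RefSeq GRCr8, among them all 10 members), so no coordinates were taken for the counts. The sources used here do not give the aligner, the counter or the strand setting.

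Counts were rounded and scaled with the TMM factors of edgeR 4.0.16 (R 4.3.3), 0.992 for siHsc70 and 1.01 for siSCR. A count of 0 allows up to 3 counts, or 0.167 CPM in siHsc70 and 0.156 CPM in siSCR. Differences were taken on log2(CPM + 1), siHsc70 minus siSCR, which understates low genes, while ratios use no pseudocount and carry 95% Clopper-Pearson intervals. Reads are not independent molecules. The procedure was tested on simulated counts with counting error only, which cannot test a spread between cultures. With 1 library per group no test was made. The members, lists and rules were chosen with earlier results of these data known. Named genes were the members, Hspa8, relatives, and up to 3 higher and 3 lower genes per list past 2-fold, or the gene furthest from 0. A gene of the lists is not reported here. Numeric and LOC symbols were replaced by RefSeq's. Alternatives covered the pseudocount, scaling (DESeq2 1.42.0 among them), deposited TPM and FPKM, minimum mean and fold.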

Additional observations from a re-analysis of the deposited data

How the results depend on the processing

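All 10 genes kept a higher level in siHsc70 under each of the 6 alternatives that recompute a difference, 60 values in all, from 0.026 (Anxa6 with the deposited TPM) to 1.86 (S100a6 with a pseudocount of 0.1). Of the 60 values, 11 lay beyond the counting interval of the main result. Of these, 7 were smaller values with the deposited TPM, and the others were larger values under upper-quartile scaling. With the deposited TPM the median of the 10 was 0.77 instead of 0.91 and the median of all genes was -0.13, so that the members stood 0.90 above all genes, against 0.91 in the counts. The number at least 2-fold higher, 3, was 5 under upper-quartile scaling, where Anxa2 (1.04) and S100a4 (1.06) passed and 400 of all genes were higher, 4 with a pseudocount of 0.1, where S100a4 (1.01) passed, and 8 under a 1.5-fold rule, which is a looser rule by construction. Over all genes the 310 higher ones became 518 with a pseudocount of 0.1, 202 with the deposited FPKM and 189 with the deposited TPM, and the 1.5-fold rule called 1304 genes higher and 1626 lower, against 310 and 695. A minimum mean of 5 CPM left out Anxa3. Adding copies of a gene to it was not run, because 0 of the 16 copies named in RefSeq had a row among those analysed. No paired analysis was possible because each group has 1 library. The depth limits Anxa3 and S100a6, whose ratios rest on fewer than 100 reads in siSCR.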
